A study of Mus musculus with 6 samples.

Results

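This account covers 9 genes of the pathway that shows cellular peptides on MHC class I molecules, read in mouse CD8+ T cells that had been activated in vitro and sampled on day 2. The genes were taken by symbol from the 18288 gene rows of the expression table, and all 9 were found: the heavy chain genes H2-K1, H2-D1 and H2-T23, the light chain gene B2m, the peptide transporter genes Tap1 and Tap2, the tapasin gene Tapbp, the peptidase gene Erap1 and the regulator gene Nlrc5. All 9 passed the filter on low values. The comparison sets 3 libraries of Nae1T-KO mice, in which the gene for a subunit of the NEDD8-activating enzyme is the target, against 3 libraries of Nae1WT mice, and asks how transcripts of this pathway differ between the genotypes. The labels give no strain, sex, age, stimulus or Cre driver, and do not say which exons of Nae1 were removed.

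MHC class I molecules consist of a polymorphic heavy chain, the light chain beta-2 microglobulin and a short peptide. Proteasomes cut the peptides in the cytosol, the TAP transporter carries them into the endoplasmic reticulum, ERAP1 trims their amino ends, and tapasin holds empty class I molecules at the transporter until a peptide binds. The classical molecules H2-K and H2-D are what CD8+ T cells recognise, while nonclassical molecules such as Qa-1, the product of H2-T23, are ligands of NK cell receptors. Interferons raise most genes of the pathway, and NLRC5 acts at the promoters of the heavy chains and their partners.

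Values are normalized counts, that is, reads per gene divided by 1 size factor per library. The libraries held 15628252 to 25444653 reads. The Nae1 transcript stood at 1601, 1806 and 1882 in Nae1WT, and at 390, 338 and 367 where the gene was targeted (limma log2 fold change -2.27, adjusted p = 5.03e-07). The 7 CD8 T cell markers summed to 25753 to 29364 normalized counts per library. Limma called 1 of the 7 higher and 1 lower, against 6.53% and 6.18% of all tested genes. For 9 B cell markers the sums were 217, 622 and 292 (Nae1T-KO) against 248, 244 and 365 (Nae1WT). The 8 myeloid and dendritic markers with a row summed to 142, 232 and 190 against 97.0, 72.1 and 86.0; Csf1r, Adgre1, Fcgr1, Clec9a and Siglech were not analysed here. Of the 4 of these tested, limma called 1 higher, Xcr1 (adjusted p = 0.035), and 0 lower, against 6.53% and 6.18% of all tested genes. Xcr1 had only 2 to 20 reads per library, and its call held in 9 of 17 alternative fits. All 4 log2 fold changes were positive, with a median of 1.24 against -0.01 over all tested genes. An unadjusted limma p under 0.05 was reached by 4 of the 4, and by 4024 of all 13819 tested genes. DESeq2 on recovered reads called 2 higher, against 14.8% called in either direction. CD4 T cell markers summed to 110 to 273, and erythroid markers to 142 to 2042, highest in Nae1T-KO replicate 2. Of the gamma-delta T and NK cell markers, Ncr1, Klrb1c and Sox13 summed to 14.1 to 34.3. Trdc and Trdv4 were not analysed here, so this sum says little about gamma-delta T cells. What part the cells of these marker lists had in the results was not tested. By Xist, 2 of the 3 Nae1T-KO libraries and 1 of the 3 Nae1WT libraries were female. In bulk RNA, a change in the share of cells of a type and a change in RNA per cell cannot be told apart.

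The trimming peptidase Erap1 fell in Nae1T-KO, and the other 8 members did not pass the test. For 7 of those 8 the 95% interval of the log2 fold change included 0 and lay between -0.27 and 0.28. Of the 9 members, limma called 1 lower and 0 higher at an adjusted p under 0.05, where 12.7% of all 13819 tested genes were called, 6.53% higher and 6.18% lower. An unadjusted p under 0.05 was reached by 2 of the 9 members, Erap1 and H2-T23, and by 4024 of all 13819 tested genes. On recovered reads, edgeR and limma-voom called the same number, against 13.0% and 12.8% of their tested genes, and DESeq2 called 2, with H2-T23 higher, against 14.8%. Total-count scaling called 2, against 13.0%, and the replicate blocks by title number and by library number 0, against 7.0% and 1.83%. The median log2 fold change was 0.00 over the members and -0.01 over all tested genes. The groups did not overlap for these same 2 members, against 33.7% of tested genes. The median absolute log2 fold change was 0.08 over the members and 0.19 over all tested genes. Between replicates, the within-group SD on the log2 scale ran from 0.043 for H2-D1 to 0.169 for Tapbp, with a median of 0.151 over all tested genes. Tapbp alone was above that median. All tested genes include those near the filter of 10 normalized counts, while the members lie far above it, so these medians are not matched for level.

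**Figure D1:**
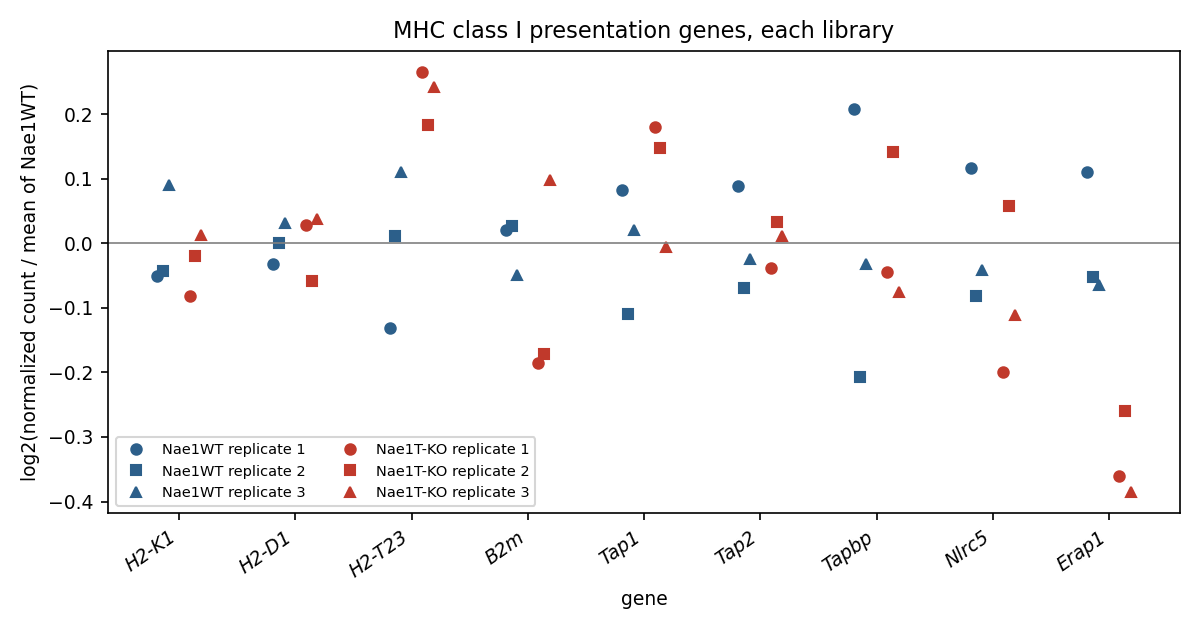
Each point is 1 library: the vertical axis is the log2 ratio of its normalized count to the mean of the 3 Nae1WT libraries, and the horizontal axis lists the 9 members. Red and blue points interleave for 7 genes and are separated for H2-T23, higher in Nae1T-KO, and Erap1, lower in Nae1T-KO.

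Neither classical heavy chain passed the test. H2-K1, which encodes H2-K, had 19254, 20099 and 20554 normalized counts in Nae1T-KO and 19664, 19766 and 21686 in Nae1WT. The libraries of the groups are mixed, and the highest is Nae1WT replicate 3. The log2 fold change was -0.03 and its 95% interval ran from -0.18 to 0.13 (limma, adjusted p = 0.837), which spans ratios of 0.881 to 1.09. H2-D1, which encodes H2-D, had 13958, 13150 and 14052 against 13395, 13694 and 13990. Here too the groups overlap, with Nae1T-KO replicate 2 the lowest library. Its log2 fold change was 0.00 with an interval of -0.14 to 0.15 (limma, adjusted p = 0.986). The sign of the log2 fold change turned with total-count scaling for H2-K1 and with upper-quartile scaling for H2-D1, both staying within 0.1 of 0. Summed, H2-K1 and H2-D1 came to 33689 ± 794 (SD, n = 3) with the gene targeted and 34065 ± 1410 (SD, n = 3) without (two-sided exact permutation p = 0.7, where 3 against 3 allows no p below 0.1).

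Both genes lie in the MHC on chromosome 17 of GRCm38 (mm10), H2-K1 from 33996012 to 34000619 and H2-D1 from 35263094 to 35267497. Class I genes resemble each other, so some reads cannot be assigned to 1 gene. Of all 50-base windows in the longest coding transcript of GENCODE M21, 8.79% for H2-K1 and 14.3% for H2-D1 also occur in a transcript of another gene, and 0% and 4.64% of 100-base windows do. The labels do not say how such reads were counted.

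Class I promoters are known to be controlled through a few short elements, and the upstream sequences are shown with the letters that match them, from the RefSeq promoter table of GRCm38.p6. The table held windows for 7 of the 9 members; Nlrc5 and Tap2 are named only. The search used 5 motifs, on both strands of each 300-base window (250 before to 50 after the start): the interferon-stimulated response element (GAAA, 2 bases of any kind, GAAA), present in 3.44% of all 32851 windows, the interferon-gamma activated site TTCNNNGAA (8.3%), the Y box CCAAT (37.4%), the X2 box TGACG (20.8%) and the kB element, whose 11 letters stand in capitals in the H2-K1 stretch (0.0304%). A looser interferon element, GAANNGAAA (7.52%), was added after the windows had been read. It can overlap the first motif. Capitals mark matches of any of these, and the 250 bases before the start are printed for H2-D1 at chr17:35262844-35263093 on the plus strand, with a 30-base stretch of H2-K1 at chr17:34000439-34000468 on the minus strand.
H2-D1: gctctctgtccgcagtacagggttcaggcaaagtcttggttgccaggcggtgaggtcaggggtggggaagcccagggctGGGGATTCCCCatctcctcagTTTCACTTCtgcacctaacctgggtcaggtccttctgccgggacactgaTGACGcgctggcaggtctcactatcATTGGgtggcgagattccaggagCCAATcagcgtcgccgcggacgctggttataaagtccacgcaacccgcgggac
H2-K1: gcccagggctGGGGATTCCCCatctccaca
The kB element stood from 171 to 161 bases before the H2-D1 start and was held by 10 of the 32851 windows, those of H2-K1 and H2-D1 among them. Both genes also had the looser interferon element, 1 X2 box and 2 Y boxes. H2-K1 had more than 1 window, with different starts, and these windows lie inside the RefSeq span of the gene. A match is a run of letters, not a bound site.

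H2-T23, which encodes the heavy chain of Qa-1, was higher in each Nae1T-KO library without passing the test. It had 5269, 4977 and 5185 normalized counts in Nae1T-KO and 4000, 4415 and 4732 in Nae1WT. The lowest Nae1T-KO library stands just above Nae1WT replicate 3, so the groups are separated by a narrow gap. This gave a log2 fold change of 0.23 with an interval of 0.07 to 0.40 (limma, adjusted p = 0.0646), a ratio of 1.18. It passed in DESeq2 on recovered reads (adjusted p = 0.0424) and with total-count scaling (0.28, adjusted p = 0.0287), with 0.0287 to 0.415 over all alternatives. Between libraries of the same sex the log2 difference was 0.07 to 0.37 over 4 pairs. Within a library, the ratio of H2-T23 to H2-D1 does not depend on scaling. It was 0.377, 0.379 and 0.369 (Nae1T-KO) against 0.299, 0.322 and 0.338 (Nae1WT) (two-sided exact permutation p = 0.1, the smallest that 3 against 3 allows, for a ratio chosen after the data were seen). H2-T23 lies on chromosome 17 from 36029977 to 36032701 and shares 28.8% of its 50-base windows and 7.28% of its 100-base windows with other genes. Its span lies within that of A930015D03Rik, which had 0 to 6.27 normalized counts.

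B2m, the light chain shared by all class I molecules, did not pass the test. Its normalized counts were 18031, 18213 and 21955 (Nae1T-KO) against 20805, 20891 and 19813 (Nae1WT). Nae1T-KO replicates 1 and 2 are the lowest of all, and replicate 3 is the highest, so the groups overlap. Its log2 fold change was -0.09 with an interval of -0.27 to 0.10 (limma, adjusted p = 0.551). Without Nae1T-KO replicate 3 it was -0.18, and the adjusted p over all alternatives ran from 0.0898 to 0.935. B2m is on chromosome 2 from 122147687 to 122153082, inside the span of Patl2, which had 0.761 to 15 normalized counts. None of its 50-base windows was shared with another gene. Its upstream sequence (chr2:122147437-122147686, plus strand) and that of H2-T23 (chr17:36032702-36032951, minus strand) are set side by side because each has 1 interferon-stimulated response element and neither has the kB element.
B2m: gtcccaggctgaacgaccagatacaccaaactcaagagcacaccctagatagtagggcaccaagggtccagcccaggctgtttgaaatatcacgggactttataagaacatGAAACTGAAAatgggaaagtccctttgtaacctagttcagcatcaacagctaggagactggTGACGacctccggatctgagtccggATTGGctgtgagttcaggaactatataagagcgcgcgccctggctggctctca
H2-T23: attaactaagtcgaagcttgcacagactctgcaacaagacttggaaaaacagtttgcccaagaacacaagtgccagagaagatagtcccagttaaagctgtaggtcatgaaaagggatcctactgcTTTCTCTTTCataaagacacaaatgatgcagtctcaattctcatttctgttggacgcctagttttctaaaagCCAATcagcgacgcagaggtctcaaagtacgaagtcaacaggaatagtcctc
In B2m the interferon element lies from 139 to 130 bases before the start, and in H2-T23 from 124 to 115. The H2-T23 window held 1 Y box and 0 X2 boxes, and the B2m window 1 and 2.

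The genes that bring peptides to the class I molecule did not pass the test either. Tap1, a subunit of the peptide transporter, had 4367, 4270 and 3841 normalized counts in Nae1T-KO and 4081, 3574 and 3910 in Nae1WT. Nae1T-KO replicates 1 and 2 are the highest libraries, and the third falls among the Nae1WT values. Its log2 fold change was 0.11 with an interval of -0.06 to 0.28 (limma, adjusted p = 0.38). Tap2, the other subunit, had 2336, 2453 and 2417 against 2550, 2286 and 2359. Every Nae1T-KO library of Tap2 lies within the Nae1WT range. The log2 fold change of Tap2 was 0.00 with an interval of -0.15 to 0.15 (limma, adjusted p = 0.982), and its sign turned with upper-quartile scaling. Tap1 (34187556 to 34197225) and Tap2 (34204479 to 34216321) lie on either side of Psmb8 on chromosome 17 and share 25 windows of 50 bases.

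Tapbp, which encodes tapasin, was the most variable member. It had 2401, 2733 and 2351 normalized counts in Nae1T-KO and 2860, 2146 and 2423 in Nae1WT, so that both the highest and the lowest library belong to Nae1WT. Its fitted log2 fold change was 0.02 with an interval of -0.21 to 0.25 (limma, adjusted p = 0.934). It was -0.05 without Nae1T-KO replicate 2 and -0.08 without Nae1WT replicate 2. Tapbp lies on chromosome 17 from 33919478 to 33929290.

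Nlrc5, the class I transactivator, had 2656, 3174 and 2824 normalized counts in Nae1T-KO and 3307, 2882 and 2963 in Nae1WT. The lowest 2 libraries are Nae1T-KO and the highest is Nae1WT replicate 1, with overlap between the groups. For Nlrc5 the log2 fold change was -0.08 with an interval of -0.27 to 0.10 (limma, adjusted p = 0.562), negative in all 19 alternatives and called in 0. Nlrc5 is on chromosome 8 from 94434335 to 94527272, 9.98 Mb from Nae1. Its span overlaps those of 3 other measured genes, which had 1.01 to 73.7 normalized counts.

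Erap1, the aminopeptidase that trims peptides to the length class I molecules hold, was the member that fell. Its normalized counts were 3797, 4071 and 3734 (Nae1T-KO) against 5264, 4705 and 4661 (Nae1WT). All 3 Nae1T-KO libraries are below the lowest Nae1WT library. The log2 fold change was -0.33 ± 0.07 (SE) with an interval of -0.49 to -0.17 (limma, adjusted p = 0.0146), a level 20.6% lower. The 4 same-sex pairs of libraries gave -0.50 to -0.20, and with sex as a covariate it stayed called (-0.33, adjusted p = 0.0265). The call held in 17 of 19 alternatives, among them each of the 6 fits without 1 library, and ended with a replicate block by title number (adjusted p = 0.0513) or by library number on 4 libraries (adjusted p = 0.176), with 0.00118 to 0.176 over all alternatives. Within a library, the ratio of Erap1 to Tap1 was 0.869, 0.954 and 0.972 (Nae1T-KO) against 1.29, 1.32 and 1.19 (Nae1WT) (two-sided exact permutation p = 0.1, the smallest possible, for a ratio chosen after the data were seen).

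Erap1 lies on chromosome 13 from 74639573 to 74693205 and shared none of its 50-base windows with another gene. It overlaps Cast by 840 bases; Cast had 1430 to 1740 normalized counts in the 6 libraries. The promoter window of Erap1 lies inside the span of the gene, so the start it uses is downstream of the first base of that span. Around this start the sequence holds 1 interferon-stimulated response element, from 4 bases before the start into the transcript. It is shown in capitals in a 30-base stretch at chr13:74639839-74639868 on the plus strand.
Erap1: ccaccttcacTTTCACTTTCggtcccgggc
Of the 7 members with a window, B2m, H2-T23 and Erap1 held this motif: B2m and H2-T23 did not pass the test, and Erap1 fell.

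**Figure D2:**
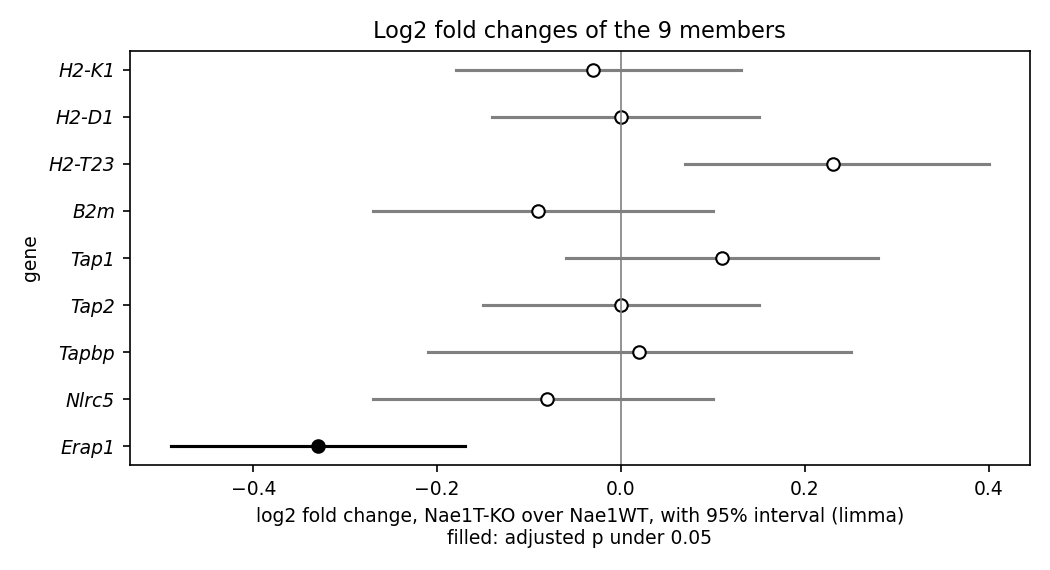
Points give the log2 fold change of each of the 9 members, Nae1T-KO over Nae1WT, and lines the 95% interval from limma; a filled point marks an adjusted p under 0.05. The point of Erap1 at -0.33 is the filled one, and the intervals of H2-K1, H2-D1, B2m, Tap1, Tap2, Tapbp and Nlrc5 include 0.

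Set per kilobase of the longest coding transcript of GENCODE M21, which allows levels to be compared between genes, the members covered a wide range. In Nae1WT the normalized counts per kilobase were 23800 ± 697 for B2m, 12600 ± 704 for H2-K1, 6510 ± 142 for H2-D1 and 2980 ± 249 for H2-T23 (SD, n = 3). The other members, the regulator Nlrc5 included, were lower: 1310 ± 87.4 for Tap1, 864 ± 59.5 for Erap1, 854 ± 124 for Tapbp, 697 ± 39.6 for Tap2 and 403 ± 29.7 for Nlrc5 (SD, n = 3). In Nae1T-KO the level per kilobase of Erap1 was 685 ± 31.8, next to Tap2 at 698 ± 17.3 and below Tapbp at 861 ± 71.6 (SD, n = 3). Of these, the ranges of mean ± SD overlapped for Erap1 and Tapbp in Nae1WT, for Tapbp and Tap2 in Nae1WT, and for Erap1 and Tap2 in Nae1T-KO.

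Among the other class I heavy chain and class I-like genes, 4 rose and 11 did not pass the test. Of 19 with a row, 15 were tested, and limma called 4 higher and 0 lower, against 6.53% and 6.18% of all tested genes. Their median log2 fold change was -0.05, with 7 of 15 positive. The 4 were H2-T22, H2-T10, H2-T-ps and H2-Q4. H2-T22 and H2-T10, whose products are recognised by some gamma-delta T cells, belong to the same T region as H2-T23. H2-T24, of that region too, did not pass the test (-0.05, limma, adjusted p = 0.789). An unadjusted limma p under 0.05 was reached by 6 of the 15, and by 4024 of all 13819 tested genes.

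H2-T22 was the clearest of these. It had 4802, 4574 and 4693 normalized counts in Nae1T-KO and 3070, 3326 and 3173 in Nae1WT. The 2 groups are far apart relative to their spread. The log2 fold change was 0.56 ± 0.06 (SE; limma, adjusted p = 0.000721), a ratio of 1.47, called in all 19 alternatives with adjusted p from 1.62e-11 to 0.0371. Same-sex differences were 0.50 to 0.61. H2-T10, which RefSeq lists as a transcribed pseudogene, had 706, 663 and 728 against 499, 510 and 513 (0.46, adjusted p = 0.00561), and H2-T-ps had 507, 415 and 505 against 351, 276 and 288 (0.64, adjusted p = 0.00912). Neither overlapped between the groups. The call for H2-T10 ended with a replicate block by library number (adjusted p = 0.0961, with 0.00032 to 0.0961 over the alternatives). These genes share sequence, so their counts are not independent. Other genes hold 44.7% of the 50-base windows of H2-T22 and 42.9% of those of H2-T10, mostly each other's, and 14.2% and 11.8% of the 100-base windows. Summed, which removes how reads were split among them, H2-T22, H2-T10 and H2-T-ps reached 5864 ± 189 (SD, n = 3) against 4002 ± 99.6 (SD, n = 3). Each of the 3 had already been called higher, so the direction of this sum was given beforehand. H2-T23 shares 12.9% of its 50-base windows with H2-T-ps, so the sum does not remove every split of reads. With H2-T23 and H2-T24 added, the sums were 11623 ± 282 against 9019 ± 421 (SD, n = 3).

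The upstream sequence of H2-T22 (chr17:36042743-36042992, minus strand) is given for comparison with that of H2-D1, since the gene rose and H2-D1 did not pass the test.
H2-T22: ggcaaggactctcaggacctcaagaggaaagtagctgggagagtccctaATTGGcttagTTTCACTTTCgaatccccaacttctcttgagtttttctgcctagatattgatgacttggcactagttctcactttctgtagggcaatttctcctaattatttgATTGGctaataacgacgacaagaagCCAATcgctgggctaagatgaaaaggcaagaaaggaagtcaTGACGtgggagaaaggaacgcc
It held 1 interferon-stimulated response element, 3 Y boxes and 1 X2 box, and 0 matches of the kB element that H2-D1 has. With 1 gene on each side, nothing follows from this about the elements.

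H2-Q4 had 2972, 3690 and 3851 normalized counts in Nae1T-KO and 2871, 2804 and 2673 in Nae1WT, with Nae1T-KO replicate 1 close to the Nae1WT libraries. Its log2 fold change was 0.32 (limma, adjusted p = 0.0487). The call held in 11 of 19 alternatives and ended without Nae1T-KO replicate 2 or 3, without any one of the 3 Nae1WT libraries, with upper-quartile scaling (adjusted p = 0.0675) and with a replicate block by title number (0.0938) or library number (0.277). All alternatives gave adjusted p from 0.00918 to 0.277. H2-Q7, a Qa-2 gene, had -0.07 (adjusted p = 0.565) and H2-M3, whose product presents formylated peptides, 0.02 (adjusted p = 0.923), with the sign of H2-M3 turning without Nae1T-KO replicate 3 or Nae1WT replicate 3. Over H2-Q4, H2-Q5, H2-Q6 and H2-Q7 together, the normalized counts were 8747 ± 637 against 8438 ± 359 (SD, n = 3; two-sided exact permutation p = 0.6). Over all 17 heavy chain genes the totals were 54562 ± 1260 and 52065 ± 2050 (SD, n = 3; two-sided exact permutation p = 0.3).

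**Figure D3:**
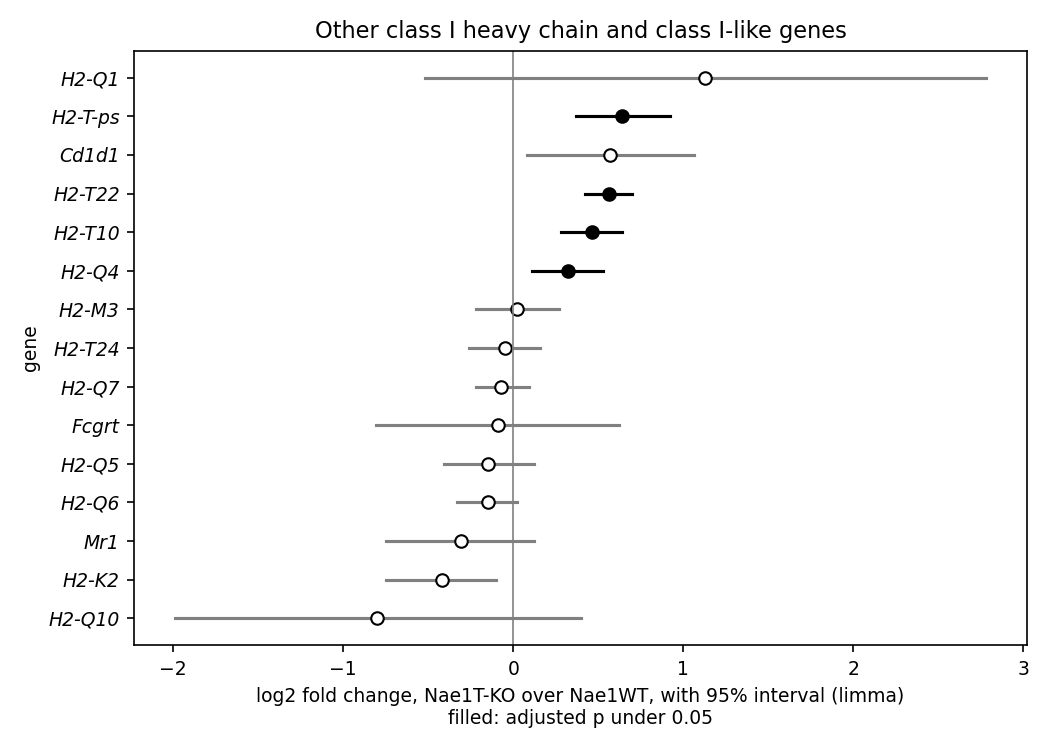
Log2 fold changes with 95% intervals (limma) for the 15 tested class I heavy chain and class I-like genes outside the 9 members, sorted by value; filled points passed an adjusted p of 0.05. The 4 filled points, H2-T-ps, H2-T22, H2-T10 and H2-Q4, are all to the right of 0, and the widest intervals belong to the low genes H2-Q1 and H2-Q10.

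Among 12 genes of peptide handling and loading, limma called 2 lower and 0 higher, against 6.18% and 6.53% of all tested genes, with a median log2 fold change of -0.08 and 1 of 12 positive. DESeq2 on recovered reads called 2 lower and 1 higher. An unadjusted limma p under 0.05 was reached by 5 of the 12, and by 4024 of all 13819 tested genes. Tapbpl, which encodes the tapasin-related peptide editor TAPBPR, had 1793, 1807 and 1732 normalized counts in Nae1T-KO and 2529, 2356 and 2299 in Nae1WT. Its groups are well separated. The log2 fold change was -0.43 ± 0.07 (SE; limma, adjusted p = 0.00325), a level 25.7% lower, and -0.55 to -0.35 between libraries of the same sex. The call held in 18 of 19 alternatives and ended with a replicate block by library number (adjusted p = 0.0921, with 7.13e-06 to 0.0921 over the alternatives). Sec61g, a subunit of the translocation channel of the endoplasmic reticulum, had 1803, 1545 and 1714 against 1949, 2696 and 2292 (-0.44, adjusted p = 0.029). That call held in 13 of 19 alternatives and ended without Nae1T-KO replicate 2 or 3 and without Nae1WT replicate 2 or 3. It also ended with a replicate block by title number (adjusted p = 0.0693) or library number (0.053), and all alternatives gave 0.00218 to 0.0974.

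**Figure D4:**
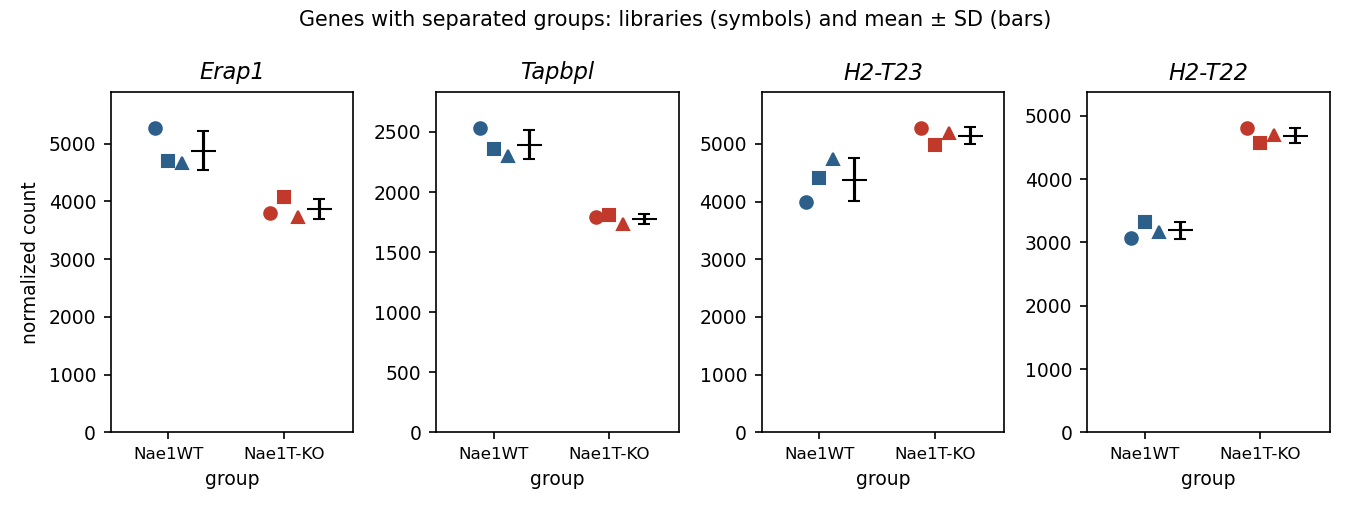
Normalized counts (vertical axes from 0) of Erap1, Tapbpl, H2-T23 and H2-T22 in the 3 Nae1WT libraries (blue) and the 3 Nae1T-KO libraries (red), with the mean and SD of each group in black. Symbols mark the replicate number; the groups do not overlap for any of the 4, and H2-T23 did not pass the test.

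No immunoproteasome gene passed the test. Of 9 proteasome and activator genes, limma called 0, against 12.7% of all tested genes. Among the 9, 1 reached an unadjusted p under 0.05, against 4024 of all 13819 tested genes. On recovered reads, edgeR, DESeq2 and limma-voom each called 0. Psmb8, an interferon-induced catalytic subunit encoded beside Tap1, had 5999, 5444 and 5957 normalized counts in Nae1T-KO and 6223, 6447 and 6739 in Nae1WT. Its groups do not overlap, and its log2 fold change was -0.16 with an interval of -0.31 to -0.01 (limma, adjusted p = 0.155). The other interferon-induced subunits had -0.06 for Psmb9 (adjusted p = 0.613) and -0.17 for Psmb10 (adjusted p = 0.228), the last at 1.4 Mb from Nae1.

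The known regulators of class I transcription changed in part. Of 15, limma called 4 higher and 0 lower, against 6.53% and 6.18% of all tested genes, and DESeq2 on recovered reads called 4 higher and 2 lower. Their median log2 fold change was 0.07. An unadjusted limma p under 0.05 was reached by 6 of the 15, and by 4024 of all 13819 tested genes. Stat2 and Irf9, partners in the factor that answers type I interferon, had 712, 753 and 700 against 521, 441 and 576 normalized counts (0.50, adjusted p = 0.0126) and 689, 774 and 699 against 588, 477 and 488 (0.48, adjusted p = 0.013). In both, every Nae1T-KO library is above every Nae1WT library. The Stat2 call ended with a replicate block by library number (adjusted p = 0.135), and that of Irf9 with the same block, without Nae1T-KO replicate 2 and without Nae1WT replicate 2 or 3, with 0.00121 to 0.0807 over the alternatives. Rela, which encodes the NF-kB subunit p65, had 1442, 1676 and 1594 against 1163, 1124 and 1176 (0.44, adjusted p = 0.00517), called in 18 of 19 alternatives and lost with a replicate block by library number (adjusted p = 0.104). Nfkb1 had 0.28 (adjusted p = 0.0411), called in 11 of 19 alternatives. Its call ended once sex was a covariate (adjusted p = 0.06), under a replicate block by title number (0.127) or library number (0.414), and without any one library other than Nae1T-KO replicate 3.

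Other regulators did not pass. Irf1, an interferon-gamma target that binds class I promoters, had -0.13 with an interval of -0.31 to 0.05 (adjusted p = 0.332). Rfx5, a subunit of the factor that docks NLRC5, had -0.01 with an interval of -0.22 to 0.20 (adjusted p = 0.963), and its sign turned with total-count scaling.

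Of 10 genes of interferon signalling, limma called 3 higher and 0 lower, against 6.53% and 6.18% of all tested genes, and DESeq2 on recovered reads called 4 higher and 1 lower. The 3 were Socs3 at 0.76 (adjusted p = 0.0113), a feedback inhibitor of cytokine receptors, Ifngr1 at 0.57 (adjusted p = 0.0351), the ligand-binding chain of the interferon-gamma receptor, and Jak2 at 0.24 (adjusted p = 0.0366), the kinase bound to its second chain. Socs3 was called in 18 of 19 alternatives, Ifngr1 in 13 and Jak2 in 11. The Socs3 call ended with a replicate block by library number (adjusted p = 0.107). That of Ifngr1 ended with the same block (0.0707) and without any one library other than Nae1T-KO replicate 1. For Jak2 it ended once sex was a covariate (adjusted p = 0.0587), under a replicate block by title number (0.11) or library number (0.306), and without any one library other than Nae1T-KO replicate 3. Ifng itself had 15810, 10693 and 13059 (Nae1T-KO) against 17550, 30771 and 28566 (Nae1WT), lower in each library without passing (-0.93, limma, adjusted p = 0.0674). It passed in 4 of 19 alternatives: in DESeq2 on recovered reads (adjusted p = 0.00743), with a replicate block by library number (-1.04, adjusted p = 0.0062), with the stricter filter (adjusted p = 0.0451) and once Nae1WT replicate 1 was left out (-1.19, adjusted p = 0.00359). All alternatives together gave 0.00359 to 0.193. Among the 10 genes of interferon signalling, 7 had an unadjusted limma p under 0.05, against 4024 of all 13819 tested genes.

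MHC class II genes, which B cells and dendritic cells express, stood at low levels. Limma called 0 of 10, against 12.7% of all tested genes. Their median log2 fold change was 0.72, against -0.01 over all tested genes. Of the 10, 9 were positive, against 6767 of all 13819 tested genes. An unadjusted p under 0.05 was reached by 4 of the 10, and by 4024 of all 13819 tested genes. On recovered reads edgeR and limma-voom called 0, against 13.0% and 12.8% of all tested genes. DESeq2 called 3 higher, against 14.8% called in either direction. The 11 genes summed to 1132, 2140 and 1304 normalized counts in Nae1T-KO and 939, 819 and 1199 in Nae1WT, highest in Nae1T-KO replicate 2. In that library the B cell, myeloid and dendritic, CD4 T cell and erythroid marker sums were also the highest. Which cells the class II reads came from was not tested. A further 5 tested genes were Cd8a and Cd8b1, for CD8, and the ubiquitin ligase genes Marchf1, Marchf8 and Marchf9. Of these, limma called 0, against 12.7% of all tested genes. None of the 5 had an unadjusted p under 0.05, and the other 3 tools called 0.

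The genes whose profile over the 6 libraries was nearest to the mean profile of the 9 members were Ddx5, Slc25a36, Champ1, Rbm19 and Thrap3. Likeness was the root mean square difference of centred log2 values, which was 0.0132 for Ddx5, 0.0165 for Slc25a36, 0.0185 for Champ1, 0.019 for Rbm19 and 0.0208 for Thrap3. The mean profile itself ranged from -0.047 in Nae1WT replicate 2 to 0.057 in Nae1WT replicate 1, so these are genes that, like the member mean, hardly vary.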

How the data were processed

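Poly-A selected RNA libraries of activated CD8+ T cells, 3 per genotype, were grouped by their titles. Per the submitters' processing notes, bcl2fastq, HISAT2 and DESeq2 1.42.0 were used with the mm10 build. Read counter, annotation and strand setting: not given in the sources used here. The authors deposited a signal of normalized counts for 18288 genes, and 100% of values were whole multiples of 1 step per library within 0.001 of a read. Reads were recovered by that step, less certainly for Nae1T-KO replicate 3, whose step is close to 1. All symbols matched RefSeq GRCm38.p6.

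Genes with a normalized count of at least 10 in at least 3 libraries (13819) were tested after log2(normalized count + 1) by limma 3.58.1 (R 4.3.3; trended, robust variance; two-sided) and Benjamini-Hochberg adjustment over all tested genes. Every fold change uses that scale and understates low genes. Alternatives were 3 other scalings, other filters and pseudocounts, 3 tools on recovered reads (DESeq2 1.42.0, limma-voom, edgeR 4.0.16), replicate blocks, sex as a covariate and leaving out each library. In simulated counts for this comparison (13628 genes), 49 genes were changed at each fold. The share of them found was 8.16% at 1.2-fold, 49% at 1.5-fold, 77.6% at 2-fold and 98% at 4-fold. Of 125 calls, 11 were false. Far fewer genes were changed there than the 1757 called in the data, so these shares need not hold for the data.

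The members, wider lists and motifs were chosen with earlier results of these data known. Named were all members, up to 5 called genes of each list and 9 further genes, 1 of which is not reported here, besides Nae1 and the 5 nearest profiles. H2-Ke6 matched the heavy chain prefix and was left out because it encodes a steroid dehydrogenase. Genes given by the group totals or overlaps were chosen after their values were seen. Replicates are called biological in the labels, with no animal named, so the p-values reflect only how these samples spread.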

Additional observations from a re-analysis of the deposited data

How the results depend on the processing

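Across the alternatives the number of genes called was 968 with a replicate block by title number, 253 with one by library number on 4 libraries, and 844 to 1790 on leaving out each library, against 1757. Members called were 2 in DESeq2 and with total-count scaling and 0 with either replicate block, against 1. Deviations from the group means had correlations of -0.13, -0.177 and -0.266 between libraries of the same title number. Those of the same library number had -0.128 and -0.266. So few pairs cannot decide whether the numbers mark shared handling, so the results with either block stand beside the main fit. Total-count scaling moved the median of all genes by 0.047 and gave 1176 higher and 622 lower calls, against 903 and 854.

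Lists called, by setting: interferon signalling had 5 in DESeq2, 1 with the block by library number and 1 to 2 without each library, against 3. Class II had 3 in DESeq2, 1 each with a pseudocount of 5, sex as a covariate or total-count scaling, and 0 to 2 without each library, against 0. The block by library number gave 2 for the other class I genes, 0 for loading and 0 for regulators, and the block by title number 1 for loading. Without each library, loading had 1 to 2, regulators 2 to 4, and the CD8 and ligase genes 0 to 1.

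Signs turned for log2 fold changes near 0 that passed in no fit: total-count scaling gave 0.0194 for H2-K1 and 0.0380 for Rfx5, upper-quartile scaling -0.00195 for H2-D1 and -0.00107 for Tap2, and Rfx5 had 0.0167 with the block by library number and 0.00893 with sex. Without each library, H2-K1 ran from -0.0527 to 0.0179, H2-D1 from -0.0151 to 0.0327, Tap2 from -0.0305 to 0.0483, Tapbp from -0.0804 to 0.127, Rfx5 from -0.0573 to 0.0251 and H2-M3 from -0.0469 to 0.105. The causes were not tested. Depth was not limiting for the members, whose lowest library still held 2053 reads.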
